A study of Mus musculus with 11 samples.

Results

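Mitochondrial ribosomal protein genes were examined in hepatocyte RNA-Seq of mice that lack XBP1 in hepatocytes and of control mice on 2 diets. The members were all protein-coding genes whose GENCODE M21 symbol starts with Mrpl or Mrps and a digit, and 78 of the 54232 genes in the count files met this rule, 49 with Mrpl (large subunit) and 29 with Mrps (small subunit) symbols. The members were chosen by name and not by any measured value. By protein numbering, 48 have a bacterial homologue and 30 are found in mitochondria only. The libraries came from isolated hepatocytes of adult male C57BL/6 mice, either liver-specific XBP1 knockouts (Xbp1 LKO, with Cre recombinase driven by the albumin promoter) or Xbp1 fl/fl controls. Both genotypes carry floxed *Xbp1*, and the mice ate chow with water, or a diet high in both fat and sugar (HFS, the AIN-76 Western Diet plus fructose and glucose in what they drank), for up to 6 weeks. There were 3 libraries of chow-fed Xbp1 fl/fl mice, 2 of chow-fed Xbp1 LKO mice, 3 of HFS-fed Xbp1 fl/fl mice and 3 of HFS-fed Xbp1 LKO mice. A chow library is 1 mouse and an HFS library is a pool of 2 mice, so only the HFS libraries average over animals.

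The mitochondrial ribosome translates the few proteins encoded by mitochondrial DNA, all of them subunits of the oxidative phosphorylation machinery. Its RNAs are made in the mitochondrion, whereas every one of its proteins is encoded in the nucleus, translated in the cytosol and imported. The small subunit reads the codon and the large subunit joins the amino acids at the inner membrane. XBP1 is the transcription factor of the unfolded protein response that widens the secretory capacity of hepatocytes.

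The promoters of these genes were read from RefSeq windows of GRCm38.p6 that run from 250 bases before to 50 bases after each gene's start. Such windows were given for 69 of the 78 members, 75 windows in all of 32851 windows. The 4 shown, which end 30 bases after the start, belong to members that stood first or second by p in one of the comparisons of genotype or diet described further on, and are written 5′ to 3′ on the gene's own strand. Capitals mark CCGGAAG (the core bound by ETS factors such as GABP), AAGATGGC (bound by YY1) and CGCATGCG (bound by NRF1), on either strand. Matches were counted over the full windows, and *Mrps18b* has a CCGGAAG match that is not contained in the stretch shown.
Mrps12, chr7:28741792-28742071, minus strand: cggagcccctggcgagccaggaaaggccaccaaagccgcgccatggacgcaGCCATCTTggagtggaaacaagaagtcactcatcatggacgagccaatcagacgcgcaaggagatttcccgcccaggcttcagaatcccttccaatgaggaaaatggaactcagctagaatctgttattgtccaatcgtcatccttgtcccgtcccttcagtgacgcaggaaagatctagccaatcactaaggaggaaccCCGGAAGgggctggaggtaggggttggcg
Mrps18a, chr17:46110754-46111033, plus strand: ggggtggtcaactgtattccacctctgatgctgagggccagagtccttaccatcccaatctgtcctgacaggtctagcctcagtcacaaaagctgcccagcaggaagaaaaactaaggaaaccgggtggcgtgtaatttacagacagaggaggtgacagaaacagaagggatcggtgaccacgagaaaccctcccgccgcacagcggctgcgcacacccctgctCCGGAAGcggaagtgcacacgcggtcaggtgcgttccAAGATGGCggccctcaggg
Mrps18b, chr17:35916411-35916690, minus strand: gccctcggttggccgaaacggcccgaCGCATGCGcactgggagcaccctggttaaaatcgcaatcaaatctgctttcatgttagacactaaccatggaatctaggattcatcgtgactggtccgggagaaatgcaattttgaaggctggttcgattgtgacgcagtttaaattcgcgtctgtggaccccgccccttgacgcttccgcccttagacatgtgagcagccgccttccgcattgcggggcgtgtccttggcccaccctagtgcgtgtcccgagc
Mrps27, chr13:99344536-99344815, plus strand: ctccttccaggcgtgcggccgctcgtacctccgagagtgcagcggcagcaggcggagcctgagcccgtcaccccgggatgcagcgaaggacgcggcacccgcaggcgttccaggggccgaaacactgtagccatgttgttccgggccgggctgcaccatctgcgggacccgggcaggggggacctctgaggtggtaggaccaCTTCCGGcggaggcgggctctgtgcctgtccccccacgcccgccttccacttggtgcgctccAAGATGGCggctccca
Of the members' windows, 26 of 75 held CCGGAAG (34.7%), against 11.6% of the windows of protein-coding genes and 8.86% of all windows. AAGATGGC stood in 12 (16%, against 3.05% and 2.75%) and CGCATGCG in 7 (9.33%, against 2.52% and 1.87%). In *Mrps18a* and *Mrps27* the YY1 letters begin at base 12 and base 15 after the start and the ETS core at -26 and -48. In *Mrps12* the order is the other way round, with the YY1 letters at -199 and the ETS core at base 2. No ETS core overlapped a YY1 match in any member's window. TGACGTGG, an element bound by XBP1 and ATF6, and TGATGNAA, the composite element of CHOP and ATF4, were in none of the 75 windows. They were in 0.705% and 3.6% of the windows of protein-coding genes and in 0.676% and 3.97% of all windows. Both are rare, so their absence from 75 windows says little. GGGCGG (52% against 46.2% for protein-coding genes), CCAAT (40% against 38.2%) and TATAAA (6.67% against 12.6%) were closer to the background. The members' windows were also richer in CpG dinucleotides, with a median of 21 CpG per window against 13 for protein-coding genes, and its part in the motif shares was not tested. A match of letters shows neither binding nor a site in use.

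Total counts were 19191032 to 23888401 per library. *Xbp1* was lower in each Xbp1 LKO library than in each Xbp1 fl/fl library, at 95.7 to 135 against 194 to 301 CPM (read counts scaled for library size), for the whole gene and not the deleted exon alone (edgeR log2 fold changes -0.87 (SE 0.18, adjusted p = 0.018) on chow and -1.26 (SE 0.16, adjusted p = 0.0025) on the HFS diet). The chow call was lost without the first or the second chow-fed Xbp1 LKO library (adjusted p = 0.092 and 0.059), with library totals (-0.54, adjusted p = 0.063) and in a fit to the 2 groups alone (adjusted p = 0.062). *Alb* took 5.88 to 10.9% of the counts in Xbp1 fl/fl libraries and 1.67 to 5.40% in Xbp1 LKO libraries, and the TMM scaling factors of edgeR were 0.878 to 0.938 and 1.05 to 1.19. Hepatocyte markers (7 of 8 found) summed to 32759.8 to 161568 CPM per library. The sums for 8 macrophage markers were 14.2 to 72.6 CPM, for 8 endothelial markers 23.0 to 124 CPM, for 8 stellate markers 7.25 to 50.9 CPM and for 6 cholangiocyte markers 3.38 to 16.3 CPM, with *Col1a1*, *Des*, *Pdgfrb*, *Krt7*, *Krt19*, *Epcam* and *Cftr* under 1 CPM in all libraries. All 37 mitochondrially encoded genes of the files, the mitochondrial ribosomal RNAs among them, were listed at 0 in every library, so the RNA part of the ribosome was not measured here.

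Summed over the 78 genes, the level of mitochondrial ribosomal protein transcripts differed little between the groups once the scaling by TMM was applied. The sum was 2508, 2388 and 2385 CPM in chow-fed Xbp1 fl/fl, 2466 and 2409.6 in chow-fed Xbp1 LKO, 2217, 2318 and 2367 in HFS-fed Xbp1 fl/fl and 2141, 2167 and 2500.1 in HFS-fed Xbp1 LKO libraries. The genotypes overlapped on either diet. Between diets, every HFS-fed Xbp1 fl/fl library was below every chow-fed Xbp1 fl/fl library, whereas the Xbp1 LKO libraries overlapped. The group means in the order above were 2427 ± 69.9 (SD, n = 3), 2438 ± 40.02 (n = 2), 2301 ± 76.7 (n = 3) and 2269 ± 200.4 (n = 3). As a plain share of all counts the same genes took, on chow, 0.233, 0.210 and 0.219% in Xbp1 fl/fl and 0.268 and 0.287% in Xbp1 LKO. On the HFS diet the shares were 0.208, 0.212 and 0.214% in Xbp1 fl/fl against 0.224, 0.244 and 0.281% in Xbp1 LKO. On that scale every Xbp1 LKO library was above every Xbp1 fl/fl library of its diet, in libraries where *Alb* and other abundant liver transcripts took a smaller share. The part of that composition in the shares was not tested, and in bulk RNA fewer transcripts per cell and fewer cells with them cannot be told apart. The third HFS-fed Xbp1 LKO library stood above the other two on both scales, and 70 of the 77 tested members (90.9%) were highest there among the 3, against 36.9% of all tested genes. That library also had the highest sum of the 3 for 76 cytosolic ribosomal proteins (2889, 2697 and 3851 CPM in order). The same held for macrophage markers (39.3, 41.9 and 72.6 CPM). In that library the sum for 9 genes induced by cell isolation lay between the others (275, 189 and 254 CPM). The part of these in the result was not tested.

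**Figure D1:**
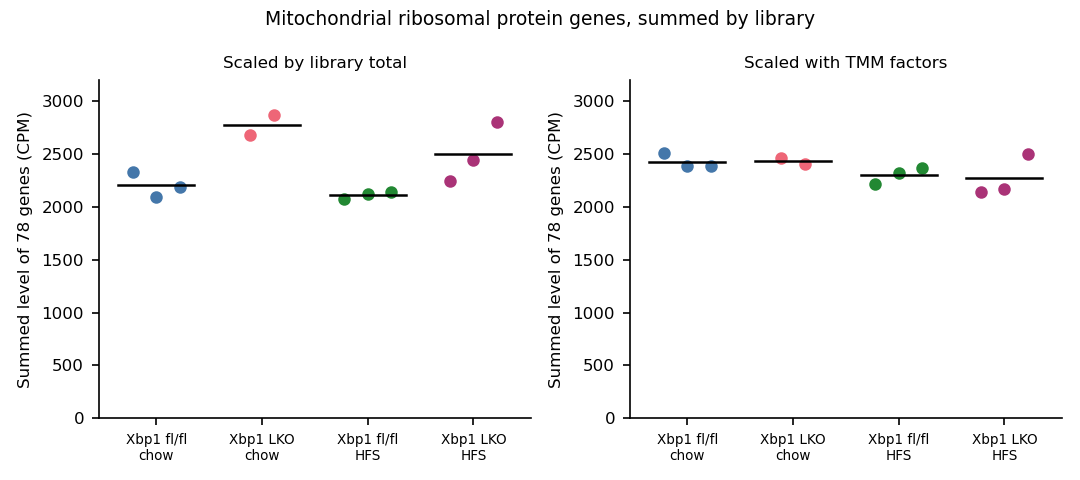
Summed level in CPM of the 78 mitochondrial ribosomal protein genes, 1 point per library and a line at each group mean, scaled by library totals (left) and with TMM factors (right). Xbp1 LKO libraries lie above Xbp1 fl/fl libraries of the same diet on the left, and the groups of each diet overlap on the right.

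Large and small subunit sums kept nearly the same ratio in every library. Genes were counted with a subunit by symbol, although the proteins of *Mrps18a* and *Mrps30* are now placed in the large subunit. The large subunit sum was 1487 to 1723 CPM and the small subunit sum 654 to 785 CPM over the 11 libraries. Within each library the large subunit sum was 2.15 to 2.27 times the small subunit sum. The ratio of the median levels per kilobase of transcript spread more widely, from 1.35 to 1.76. The coefficient of variation over the 11 libraries had a median of 9.62% for the 77 tested members, 10.17% for 80 nuclear subunits of oxidative phosphorylation, 17.7% for 72 cytosolic ribosomal proteins and 18.4% for all 13303 tested genes. The members' mean level had a median of 27.3 CPM against 13.7 CPM for all tested genes, and low counts raise this coefficient. The highest library was under 1.5 times the lowest for 61 of the 77 and at least 1.5 times the lowest for the other 16. The 4 members whose coefficient was over 20% were *Mrpl23*, *Mrps36*, *Mrps34* and *Mrps27*.

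**Figure D2:**
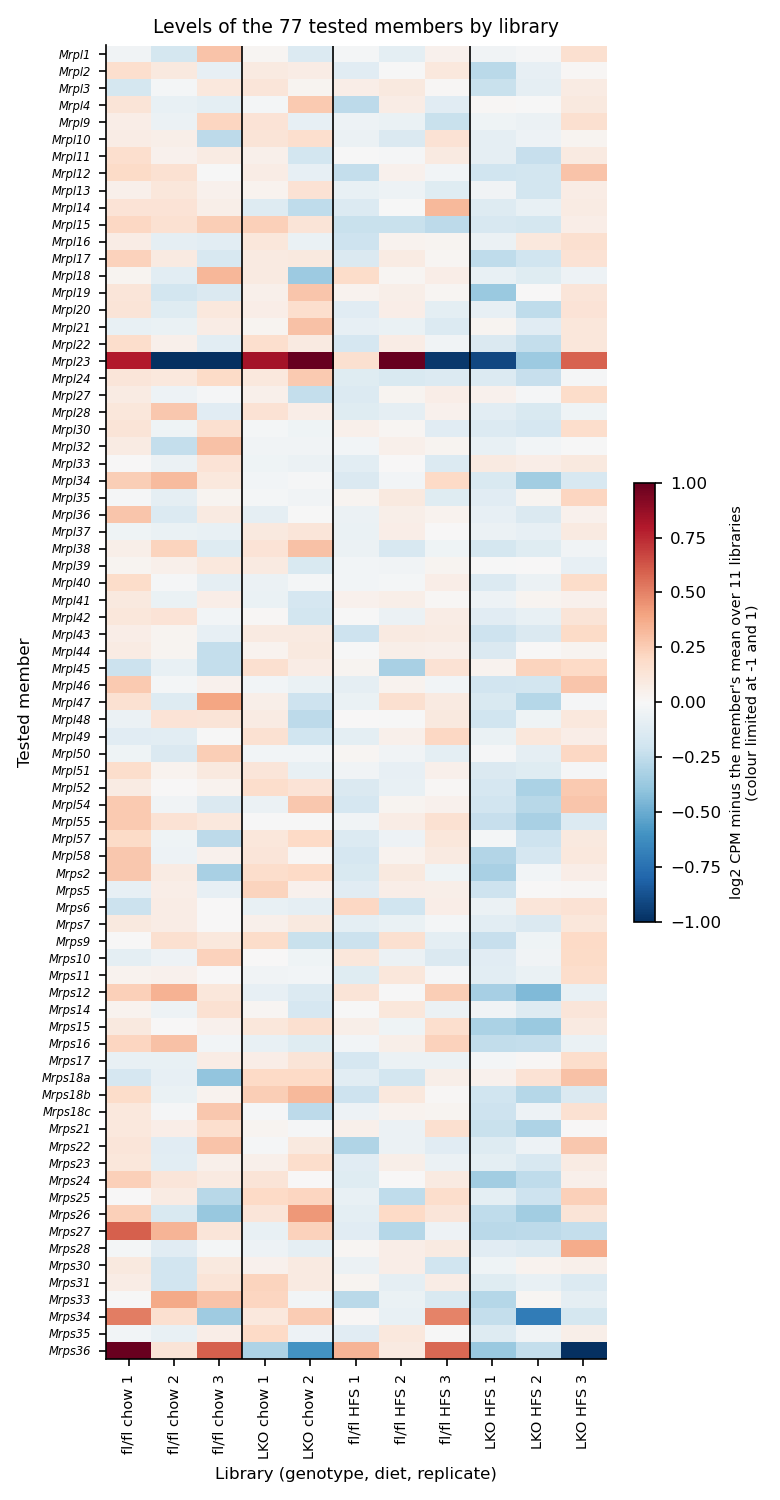
Level of each tested member in each library as log2 CPM minus that member's mean over the 11 libraries, with lines between the 4 groups and the colour limited at -1 and 1. Most rows stay pale, *Mrpl23* and *Mrps36* (both under 1 CPM on average) are the exceptions, and the third HFS-fed Xbp1 LKO column is redder than the other two.

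Levels between genes were compared per kilobase of transcript (CPM per kb, over the median length of the protein-coding transcripts). The highest were *Mrpl52* at 91.0, *Mrpl20* at 90.8 and *Mrpl30* at 74.99 CPM per kb, all of the large subunit. The median was 29.4 CPM per kb for the large and 19.5 for the small subunit genes. The lowest tested members were *Mrpl23* at 0.673, *Mrps36* at 0.899 and *Mrps25* at 1.88 CPM per kb. *Mrps36* is now known as a subunit of the oxoglutarate dehydrogenase complex. *Mrpl53* (ENSMUSG00000030037) was the single member that did not pass the filter on low counts, with 0 or 1 count in every library. These low members share sequence with other annotated genes, counted on either strand. All 50-base stretches of *Mrpl53* exons also occur in *Gm42688*. Of those of *Mrpl23* 51.7%, of *Mrps36* 33.7% and of *Mrps25* 73.9% occur in at least 1 other gene. For *Mrps25*, 100% of exon bases lie outside the exons of other genes on its own strand, and 30.2% on either strand. It had 186 to 349 counts per library, over a transcript length of 6073 bases. The levels of these low members are therefore uncertain. The 5 annotated pseudogenes with a member's name took few reads, at most 32 in total over the 11 libraries, for *Mrpl23-ps1*.

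The comparison of genotypes on chow asked whether the loss of hepatocyte XBP1 alone changed these genes, and no member passed the threshold. By the quasi-likelihood test of edgeR, adjusted over 13303 genes with the Benjamini-Hochberg method, 0 of 77 members had an adjusted p under 0.05, against 4.75% of all tested genes. At an unadjusted p under 0.05 there were 4 members (5.19%, against 19.3% of all genes), and DESeq2 called 0 members, against 8.49% of all genes. The median log2 fold change was -0.02 for the members and 0.00 for all genes, with 39 of 77 members negative (50.6%, against 49.7%). The libraries of the 2 groups did not overlap for 19 members (24.7%, against 31.3% of all genes), 10 of them higher (15.4% of all genes) and 9 lower (15.9% of all genes) in Xbp1 LKO. The 95% interval lay within a 1.5-fold change in either direction for 65 of the 77 members and within a 2-fold change for 75, all but *Mrpl23* and *Mrps36*.

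*Mrps18a* (ENSMUSG00000023967, chromosome 17 from 46110986 to 46128910 of GRCm38) had the smallest p on chow. It had 33.5, 35.5 and 28.6 CPM in Xbp1 fl/fl and 43.1 and 43.1 CPM in Xbp1 LKO on chow. The groups did not overlap, but the edgeR log2 fold change, 0.41 (SE 0.12, adjusted p = 0.086), missed the threshold. *Mrps12* (ENSMUSG00000045948, chromosome 7 from 28739641 to 28741820), the protein next to the decoding site, came next, with 42.6, 45.9 and 39.1 CPM in Xbp1 fl/fl and 34.0 and 32.8 CPM in Xbp1 LKO libraries. Both Xbp1 LKO libraries were below all Xbp1 fl/fl libraries, and the edgeR log2 fold change was -0.35 (SE 0.13, adjusted p = 0.16). *Mrps36* had 19, 10 and 16 counts against 10 and 8 counts, without overlap in CPM, and its edgeR log2 fold change, -1.05 (SE 0.44, adjusted p = 0.22), rests on these few reads. The other member with an unadjusted p under 0.05 was *Mrpl14* of the large subunit, at 47.8, 47.7 and 45.2 CPM in Xbp1 fl/fl and 39.9 and 36.4 CPM in Xbp1 LKO without overlap (edgeR log2 fold change -0.30, SE 0.13, adjusted p = 0.26, and 0.03 with library totals as the scaling).

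These values depend on the scaling. With library totals in place of TMM factors, the median of all genes itself rose by 0.33 on the log2 scale on chow and by 0.27 on the HFS diet. The median of the members then was 0.31 and 0.24, slightly below that of all genes in both comparisons. The estimate turned from negative to positive for 37 of the 77 members on chow and for 43 on the HFS diet, and for none the other way. *Mrps12* stayed negative, but at -0.02 (adjusted p = 0.92) on chow and -0.14 (adjusted p = 0.42) on the HFS diet. On that scale edgeR called 22 members on chow, all higher in Xbp1 LKO, against 22.5% of all genes called in either direction and 20.2% called higher. *Mrps18a* was among them with a log2 fold change of 0.74 (adjusted p = 0.0076), as were *Mrpl10*, *Mrpl45* and *Mrps18b*.

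On the HFS diet the genotypes were again close. edgeR called 0 of 77 members, against 4.08% of all tested genes, 4 members had an unadjusted p under 0.05 (5.19%, against 17.5% of all genes), and DESeq2 called 1, *Mrps12*, against 7.57% of all genes. The median log2 fold change was -0.02 for the members and 0.01 for all genes, and 49 of 77 members were negative (63.6%, against 48.6%). Libraries did not overlap for 10 members (13.0%, against 26.1% of all genes), 3 higher (13.6% of all genes) and 7 lower (12.5% of all genes) in Xbp1 LKO. The 95% interval was within 1.5-fold for 72 members and within 2-fold for 74, all but *Mrpl23*, *Mrps34* and *Mrps36*. With library totals edgeR called 5 members, all higher in Xbp1 LKO (*Mrpl15*, *Mrpl33*, *Mrpl45*, *Mrps17* and *Mrps18a*), against 11.1% of all genes in either direction and 9.68% higher.

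*Mrps12* had the smallest p of the members here. Its level was 39.5, 35.99 and 42.8 CPM in HFS-fed Xbp1 fl/fl and 28.6, 26.5 and 34.4 CPM in HFS-fed Xbp1 LKO libraries, with no overlap. The edgeR log2 fold change was -0.40 (SE 0.12, adjusted p = 0.079), and without the third Xbp1 LKO library it was -0.52 with an adjusted p of 0.045. DESeq2 gave -0.41 with an adjusted p of 0.036, and over all alternatives the adjusted p ran from 0.036 to 0.42. With TMM scaling the same gene had the second smallest p of the members on chow and the smallest on the HFS diet. The compared groups share no library, but both p-values use the gene's spread from a single fit to all 11 libraries. With library totals the estimates of *Mrps12* were near 0 on chow and smaller on the HFS diet, as given above. *Mrpl55*, a large subunit protein, had 18.9, 20.4 and 21.6 CPM in HFS-fed Xbp1 fl/fl and 16.5, 15.5 and 17.6 CPM in HFS-fed Xbp1 LKO libraries. Its groups did not overlap, and its edgeR log2 fold change was -0.29 (SE 0.10, adjusted p = 0.13).

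*Mrps16*, a small subunit protein whose human gene is mutated in an inherited deficiency of oxidative phosphorylation, came next after *Mrpl55*. It had 18.1, 19.1 and 21.6 CPM in HFS-fed Xbp1 fl/fl and 15.4, 15.6 and 17.5 CPM in HFS-fed Xbp1 LKO libraries, and 21.3, 22.5 and 18.0 CPM against 17.4 and 16.9 CPM on chow. The groups of each diet did not overlap, yet its edgeR log2 fold changes, -0.27 (SE 0.11, adjusted p = 0.24) on the HFS diet and -0.26 (SE 0.13, adjusted p = 0.30) on chow, missed the threshold, and the chow estimate turned to 0.067 with library totals. *Mrps18a* on the HFS diet had 35.1, 33.2 and 39.3 CPM in Xbp1 fl/fl against 38.8, 41.7 and 46.1 CPM in Xbp1 LKO, which overlapped, and an edgeR log2 fold change of 0.24 (SE 0.11, adjusted p = 0.30). *Mrps34*, a small subunit protein of low level, had 6.14, 5.80 and 8.62 CPM against 5.17, 3.76 and 5.41 CPM, without overlap, and an edgeR log2 fold change of -0.52 (SE 0.24, adjusted p = 0.30). Only 22.2% of its exon bases lie outside the exons of other genes on either strand, and 63.0% outside those on its own strand. How reads in shared stretches were counted is not known, so the level of *Mrps34* is uncertain. *Mrps36*, the remaining member with an unadjusted p under 0.05, had 14, 11 and 16 counts against 10, 12 and 6 counts (edgeR log2 fold change -0.88, SE 0.39, adjusted p = 0.27).

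**Figure D3:**
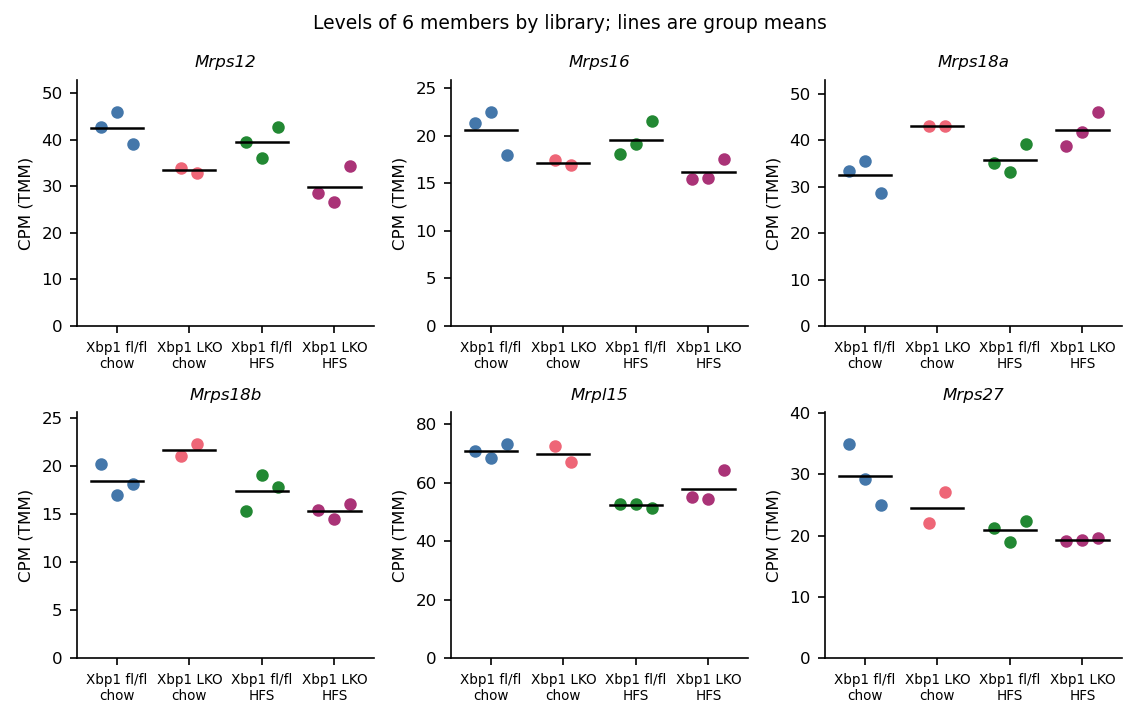
CPM of 6 members in each library with TMM scaling, 1 point per library and a line at each group mean, axes from 0. The means of *Mrps12* and *Mrps16* lie lower in Xbp1 LKO on both diets (with library totals the chow estimate is near 0 for *Mrps12* and positive for *Mrps16*), that of *Mrps18a* higher, and those of *Mrpl15* and *Mrps27* lower on the HFS diet, none past the edgeR threshold.

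The HFS diet was associated with slightly lower estimates for most members in both genotypes, below the threshold. In Xbp1 fl/fl mice edgeR called 0 of 77 members against 0.428% of all genes, 3 members had an unadjusted p under 0.05 (3.90%, against 8.95%), and DESeq2 called 1, *Mrpl15*, against 1.36% of all genes. The median log2 fold change was -0.07 for the members and -0.01 for all genes, and 57 of 77 were negative (74.0%, against 51.1%). Libraries did not overlap for 7 members (9.09%, against 13.7%), 6 of them lower (7.34% of all genes) and 1 higher (6.33% of all genes). In Xbp1 LKO mice edgeR called 0 of 77 members against 0.0601% of all genes, 7 had an unadjusted p under 0.05 (9.09%, against 12.7%), all lower, and DESeq2 called 1, *Mrps18b*, against 1.6% of all genes. The median was -0.11 for the members and 0.00 for all genes, and 56 of 77 were negative (72.7%, against 50.5%). Libraries did not overlap for 22 members (28.6%, against 31.1%), 19 of them lower (14.4% of all genes) and 3 higher (16.7% of all genes). With library totals the medians were -0.05 and -0.15, against 0.01 and -0.05 for all genes.

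*Mrpl15*, a large subunit protein with a bacterial homologue, had the smallest p of the members for diet in Xbp1 fl/fl mice. It had 70.9, 68.5 and 73.1 CPM on chow and 52.9, 52.7 and 51.3 CPM on the HFS diet. All 3 HFS libraries were below all chow libraries, with an edgeR log2 fold change of -0.44 (SE 0.09, adjusted p = 0.095) and a DESeq2 adjusted p of 0.0025 (over all alternatives 0.0025 to 0.35). In Xbp1 LKO mice it had 72.6 and 67.1 CPM on chow and 55.0, 54.6 and 64.5 CPM on the HFS diet, without overlap, and an edgeR log2 fold change of -0.27 (SE 0.10, adjusted p = 0.32). *Mrps27*, an RNA-binding pentatricopeptide repeat protein of the small subunit, had 34.9, 29.3 and 25.1 CPM on chow and 21.3, 18.99 and 22.3 CPM on the HFS diet in Xbp1 fl/fl mice. Its chow libraries spread widely. The edgeR log2 fold change was -0.51 (SE 0.13, adjusted p = 0.20). The groups did not overlap, and with no filter on low counts the adjusted p was 0.039 (over all alternatives 0.039 to 0.42). In Xbp1 LKO mice it had 22.0 and 27.1 CPM and 19.1, 19.3 and 19.6 CPM, again without overlap and with an edgeR log2 fold change of -0.34 (SE 0.14, adjusted p = 0.35). *Mrpl24*, a protein near the exit of the peptide tunnel, had 40.9, 40.5 and 42.9 CPM on chow and 34.6, 33.7 and 34.2 CPM on the HFS diet in Xbp1 fl/fl mice, and 40.5 and 45.1 CPM against 34.2, 32.0 and 37.3 CPM in Xbp1 LKO mice. In neither genotype did the diets overlap, and the edgeR log2 fold changes were -0.28 (SE 0.09, adjusted p = 0.34) in Xbp1 fl/fl and -0.31 (SE 0.10, adjusted p = 0.25) in Xbp1 LKO mice.

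*Mrps18b* (ENSMUSG00000024436) had the smallest p for diet in Xbp1 LKO mice. It had 21.1 and 22.3 CPM on chow and 15.5, 14.5 and 16.0 CPM on the HFS diet in Xbp1 LKO libraries. The groups did not overlap, with an edgeR log2 fold change of -0.50 (SE 0.12, adjusted p = 0.19) and a DESeq2 adjusted p of 0.043 (over all alternatives 0.043 to 0.64). In Xbp1 fl/fl libraries it had 20.2, 17.0 and 18.2 CPM on chow and 15.4, 19.1 and 17.9 CPM on the HFS diet, which overlapped. Counted on either strand, 56.0% of the 50-base stretches of its exons occur in at least 1 other gene. Of its exon bases 69.5% lie outside the exons of other genes on either strand, and 100% outside those on its own strand. *Mrpl38*, part of the central protuberance, had 92.3 and 103 CPM on chow and 74.1, 77.2 and 81.9 CPM on the HFS diet, without overlap, and an edgeR log2 fold change of -0.33 (SE 0.12, adjusted p = 0.30).

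The difference of the genotype effects between the diets was tested as an interaction. edgeR called 0 of 77 members and 0% of all genes, with 1 member at an unadjusted p under 0.05 (1.30%, against 6.13% of all genes), and DESeq2 called 0 members, against 0.218% of all genes. The estimate was negative for 39 members (50.6%, against 48.8%). The member with that p was *Mrps18b*, with an interaction on the log2 scale of -0.42 (SE 0.17, adjusted p = 0.77), followed by *Mrps26* at -0.58 (SE 0.27, adjusted p = 0.81) and *Mrps15* at -0.34 (SE 0.18, adjusted p = 0.83). *Mrps26* had 21.3, 16.2 and 13.9 CPM in Xbp1 fl/fl against 19.6 and 24.4 CPM in Xbp1 LKO on chow, and 16.9, 20.8 and 19.7 CPM against 15.2, 14.2 and 19.8 CPM on the HFS diet. *Mrps15* had 24.7, 23.2 and 23.8 CPM against 25.04 and 25.8 CPM on chow, and 24.1, 22.5 and 26.0 CPM against 18.6, 17.9 and 24.6 CPM on the HFS diet. The genotypes overlapped on both diets for *Mrps26* and on the HFS diet for *Mrps15*. The median standard error of the interaction was 0.17, and its 95% interval lay within 1.5-fold for 57 of the 77 members, so differences of that size or more could be missed in the others.

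**Figure D4:**
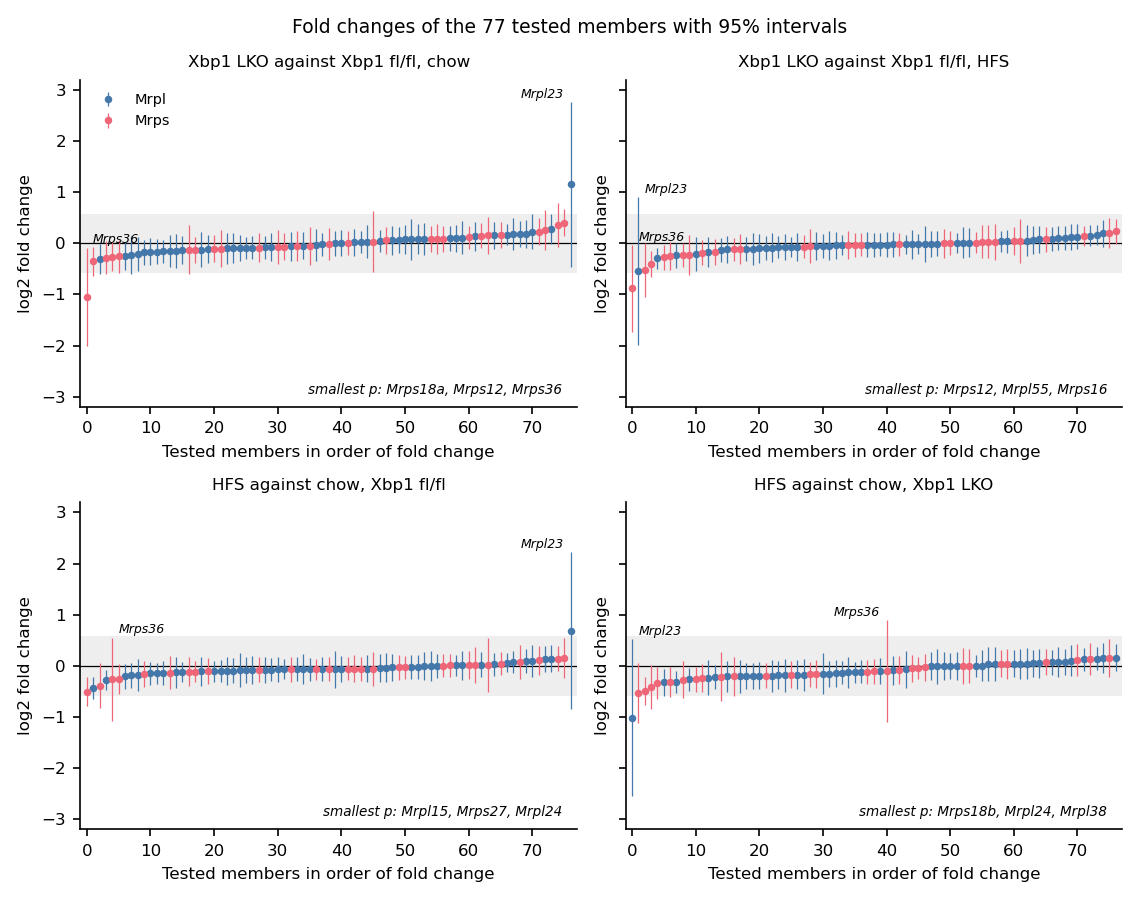
log2 fold change of each of the 77 tested members with its 95% interval from edgeR, ordered by size in each of the 4 comparisons, with genes of Mrpl symbols in blue, of Mrps symbols in red and a grey band for changes under 1.5-fold. Estimates outside the band are few and those of *Mrpl23* and *Mrps36* have the widest intervals.

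Seen by role, no gene of a panel of 24 chosen to span the functional centres passed the edgeR threshold in any comparison. *Mrpl12*, the stalk protein that also binds the mitochondrial RNA polymerase, had 83.1, 81.1 and 72.4 CPM in Xbp1 fl/fl and 76.4 and 68.6 CPM in Xbp1 LKO on chow, and 61.6, 74.98 and 71.3 CPM in Xbp1 fl/fl and 63.5, 64.0 and 88.4 CPM in Xbp1 LKO on the HFS diet. The groups overlapped in each comparison, and its edgeR log2 fold change for diet in Xbp1 fl/fl mice was -0.19 (SE 0.14, adjusted p = 0.80). *Mrpl10*, at the base of the stalk, had 47.9, 47.6 and 38.0 CPM and 49.9 and 51.2 CPM on chow, with no overlap and an edgeR log2 fold change of 0.19 (SE 0.13, adjusted p = 0.47). *Mrpl11*, beside it, lay between 23.7 and 31.3 CPM in the 11 libraries.

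Of the proteins around the peptidyl transferase centre, *Mrpl2* ranged from 40.1 to 54.2 CPM, *Mrpl3* from 19.7 to 25.04 CPM and *Mrpl16* from 35.3 to 45.5 CPM over the 11 libraries. *Mrpl18* of the central protuberance ranged from 23.4 to 37.7 CPM. Among proteins found in mitochondria only, *Mrpl41* ranged from 16.5 to 19.9 CPM and *Mrpl44* from 23.1 to 29.1 CPM. *Mrpl45*, which ties the ribosome to the inner membrane, had 27.2, 29.9 and 26.7 CPM in Xbp1 fl/fl and 35.2 and 33.2 CPM in Xbp1 LKO on chow, without overlap. Its edgeR log2 fold change was 0.29 (SE 0.13, adjusted p = 0.27). *Mrpl58*, the peptidyl-tRNA hydrolase that rescues stalled ribosomes, ranged from 22.6 to 33.4 CPM.

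In the small subunit, *Mrps7*, which binds the ribosomal RNA of the head, was one of the steadiest and ranged from 73.2 to 87.7 CPM. *Mrps2* ranged from 35.3 to 53.2 CPM, *Mrps5* from 25.5 to 34.3 CPM and *Mrps14* from 23.1 to 28.9 CPM. *Mrps22* and *Mrps35*, which have no bacterial homologue, ranged from 18.8 to 28.1 CPM and 29.0 to 36.3 CPM. Across the panel, edgeR log2 fold changes ran from -0.35 to 0.41 for genotype on chow and from -0.52 to 0.24 on the HFS diet. For diet they ran from -0.51 to 0.14 in Xbp1 fl/fl and from -0.54 to 0.12 in Xbp1 LKO mice, and no adjusted p in the panel was below 0.079.

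The 3 paralogs of a bacterial small subunit protein differed in the sign of their chow estimates. Each fills a different place, *Mrps18a* in the large and *Mrps18b* and *Mrps18c* in the small subunit. Their mean levels were 50.5, 22.3 and 21.9 CPM per kb. *Mrps18c* had 14.9, 13.8 and 16.7 CPM in Xbp1 fl/fl and 13.8 and 11.6 CPM in Xbp1 LKO on chow, which overlapped, and an edgeR log2 fold change of -0.26 (SE 0.14, adjusted p = 0.37) (with library totals 0.07). The chow estimates for *Mrps18a* and *Mrps18b* were positive, 0.41 and 0.23 on the log2 scale (adjusted p = 0.086 and 0.34 by edgeR), and for neither did the groups overlap.

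The medians of subgroups were all small. On chow the median log2 fold change for genotype was -0.01 for 48 large and -0.02 for 29 small subunit genes, and -0.03 for 48 genes with and 0.06 for 29 without a bacterial homologue. On the HFS diet these medians were -0.02, -0.03, -0.03 and -0.02. None of the 5 subunits with other names (*Dap3*, *Ptcd3*, *Aurkaip1*, *Chchd1* and *Gadd45gip1*) passed the threshold in any comparison. Nor did any of 15 translation factors. On chow, libraries did not overlap for 5 of these 15 (33.3%, against 31.3% of all genes), all higher in Xbp1 LKO (15.4% of all genes). They did not overlap for 7 of 22 assembly factors (31.8%) and 7 of 17 mitochondrial aminoacyl-tRNA synthetases (41.2%), again all higher. On the HFS diet these counts were 3 (20%), 1 (4.55%) and 2 (11.8%), against 26.1% of all genes.

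Among 22 assembly factors, edgeR called 1 on chow (4.55%, against 4.75% of all genes), and DESeq2 called 2 (against 8.49%). By edgeR this was *Dhx30*, an RNA helicase of the mitochondrial RNA granule, higher in chow-fed Xbp1 LKO. It had 30.3, 27.2 and 25.5 CPM in Xbp1 fl/fl and 35.7 and 39.2 CPM in Xbp1 LKO libraries, without overlap, and an edgeR log2 fold change of 0.44 (SE 0.10, adjusted p = 0.035). The call was lost without the second or the third chow-fed Xbp1 fl/fl library, any HFS-fed Xbp1 fl/fl library, the second HFS-fed or the second chow-fed Xbp1 LKO library, with an adjusted p of 0.30 in the last case. It was also lost in a fit to the 2 groups alone (adjusted p = 0.20) and with no filter on low counts (0.055). Of 17 mitochondrial aminoacyl-tRNA synthetases edgeR called 1, on the HFS diet (5.88%, against 4.08% of all genes). DESeq2 called 1 on each diet (against 8.49% on chow and 7.57% on the HFS diet). By edgeR the gene was *Mars2*, which charges methionine. It had 4.29, 4.79 and 3.97 CPM in Xbp1 fl/fl and 6.68, 7.66 and 6.94 CPM in Xbp1 LKO libraries and an edgeR log2 fold change of 0.71 (SE 0.16, adjusted p = 0.031). All Xbp1 LKO libraries were above all Xbp1 fl/fl libraries, but the call was lost without any single HFS-fed Xbp1 fl/fl library and without the second or the third HFS-fed Xbp1 LKO library, with an adjusted p of up to 0.14.

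Of 15 regulators of mitochondrial transcription and biogenesis, DESeq2 called 1 higher on chow (against 8.49% of all genes in either direction). On the HFS diet it called 1 lower (against 7.57%), where the smallest edgeR adjusted p of the list was 0.072. There 1 regulator was lower without overlap (6.67%, against 12.5% of all genes), *Ppargc1b*. It had 14.6, 13.9 and 13.7 CPM in Xbp1 fl/fl and 10.4, 8.11 and 5.41 CPM in Xbp1 LKO libraries. With edgeR 1 of the 15 was called, on chow (6.67%, against 4.75%), *Myc*. It had 4.96, 6.18 and 6.57 CPM in Xbp1 fl/fl and 53.2 and 42.6 CPM in Xbp1 LKO libraries. Its edgeR log2 fold change was 3.02 (SE 0.77, adjusted p = 0.049), and its groups did not overlap. The call was lost without any single chow library, the third HFS-fed Xbp1 fl/fl library or the second or the third HFS-fed Xbp1 LKO library, and without a chow library the adjusted p was between 0.098 and 0.18. On chow 8 of 13 genes of mitochondrial stress and protein quality control had an unadjusted edgeR p under 0.05 (61.5%, against 19.3% of all genes). Libraries did not overlap for 9 of the 13 (69.2%, against 31.3%), all higher in Xbp1 LKO, and DESeq2 called 5 (against 8.49%). On the HFS diet these counts were 3 (23.1%, against 17.5%), 6 (46.2%, against 26.1%, 5 higher) and 1 (against 7.57%). The first and second chow-fed Xbp1 LKO libraries differed for some of the 13. *Atf5* had 268 and 836 CPM there, against 249 to 314 CPM in chow-fed Xbp1 fl/fl. *Clpx* had 108 and 229 against 109 to 136 CPM, and *Lonp1* 256 and 378 against 170 to 223 CPM. *Hspd1* (274 and 259 against 211 to 223 CPM) and *Trap1* (315 and 277 against 249 to 258 CPM) were not higher in the second. With edgeR 1 of the 13 was called on each diet (7.69%, against 4.75% and 4.08%), *Ddit3*, which encodes CHOP. On chow it had 4.52, 5.89 and 6.67 CPM in Xbp1 fl/fl and 23.6 and 132 CPM in Xbp1 LKO libraries and an edgeR log2 fold change of 3.77 (SE 0.66, adjusted p = 0.0098). The second Xbp1 LKO library was far above the first, and without it the log2 fold change was 2.04 and the adjusted p 0.12. On the HFS diet it had 5.10, 2.95 and 4.996 CPM against 15.8, 13.5 and 44.5 CPM and an edgeR log2 fold change of 2.50 (SE 0.62, adjusted p = 0.048). That call was lost without any single Xbp1 fl/fl library of either diet or without the second or the third HFS-fed Xbp1 LKO library, with an adjusted p of 0.17 and a log2 fold change of 1.75 in the latter case.

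Beside the cytosolic ribosome and the complexes of oxidative phosphorylation, the members had the median nearest to 0 for genotype with TMM scaling. For genotype on chow the median log2 fold change was -0.02 for the members, 0.12 for 72 cytosolic ribosomal proteins and -0.17 for 80 nuclear subunits of oxidative phosphorylation. On the HFS diet these were -0.02, 0.13 and -0.10. With library totals the medians in that order were 0.31, 0.45 and 0.15 on chow, against 0.33 for all genes. On the HFS diet they then were 0.24, 0.39 and 0.16, against 0.27, so the oxidative phosphorylation subunits were nearest to 0. edgeR called 1 cytosolic ribosomal protein (1.39%) and 3 nuclear oxidative phosphorylation subunits (3.75%) on chow, and 0 and 2 (2.5%) on the HFS diet. These shares were below the 4.75% and 4.08% of all tested genes. DESeq2 called 2 and 4 on chow and 0 and 3 on the HFS diet, against 8.49% and 7.57% of all genes. Of the 80 oxidative phosphorylation subunits, 67 were negative on chow (83.8%, against 49.7% of all genes). On the HFS diet 61 were negative (76.2%, against 48.6%). Without overlap, 30 were lower on chow (37.5%, against 15.9%) and 4 higher (5%, against 15.4%). On the HFS diet 19 were lower (23.8%, against 12.5%) and 2 higher (2.5%, against 13.6%). With library totals 13 of the 80 were negative on chow and 12 on the HFS diet. *Ndufa9*, a complex I subunit, fell on both diets, from 125, 135 and 141 to 72.4 and 54.4 CPM on chow (edgeR log2 fold change -1.08, SE 0.16, adjusted p = 0.0053) and from 127, 124 and 136 to 64.1, 51.8 and 72.4 CPM on the HFS diet (-1.04, SE 0.14, adjusted p = 0.0033), without overlap. The chow call was lost without the second Xbp1 LKO library (adjusted p = 0.068). *Ndufa1*, also of complex I, had 62.6, 63.7 and 66.2 CPM in Xbp1 fl/fl and 50.9 and 43.4 CPM in Xbp1 LKO on chow (-0.44, SE 0.11, adjusted p = 0.047), and *Atp5d* of the ATP synthase had 240.1, 247 and 312 CPM against 187, 161 and 202 CPM on the HFS diet (-0.54, SE 0.14, adjusted p = 0.050). *Ndufa1* kept its call only without the first chow-fed Xbp1 LKO library, and *Atp5d* only without the third chow-fed Xbp1 fl/fl library or either chow-fed Xbp1 LKO library, among the fits that left out 1 library. With library totals both calls were lost, at -0.12 (adjusted p = 0.40) for *Ndufa1* and -0.28 (adjusted p = 0.16) for *Atp5d*, as they were in fits to the 2 groups alone (adjusted p = 0.19 and 0.061) and, for *Ndufa1*, with no filter on low counts (0.12). *Rpl12* of the cytosolic large subunit had 2.76, 3.06 and 3.68 CPM and 5.80 and 9.18 CPM on chow (1.24, SE 0.25, adjusted p = 0.018), a call lost without the first or second Xbp1 fl/fl or the second Xbp1 LKO library and in a fit to the 2 groups alone (adjusted p = 0.079). *Cox6a2*, the muscle form of a complex IV subunit, was at 0 in the 3 Xbp1 fl/fl libraries and at 0.725 and 2.49 CPM in Xbp1 LKO libraries on chow (adjusted p = 0.014, and 0.11 without the second of these or 0.056 in a fit to the 2 groups alone). For diet the cytosolic list had medians of -0.26 in Xbp1 fl/fl and -0.25 in Xbp1 LKO mice, against -0.07 and -0.11 for the members, and edgeR called no gene of any list for diet or for the interaction. DESeq2 called 1 cytosolic gene for diet, in Xbp1 LKO mice, against 1.6% of all genes. At an unadjusted p under 0.05 there were 14 and 13 of the 72 cytosolic genes (19.4% and 18.1%), against 8.95% and 12.7% of all genes. The members had 3 and 7 of 77 (3.9% and 9.09%). These differences between lists were not tested.

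**Figure D5:**
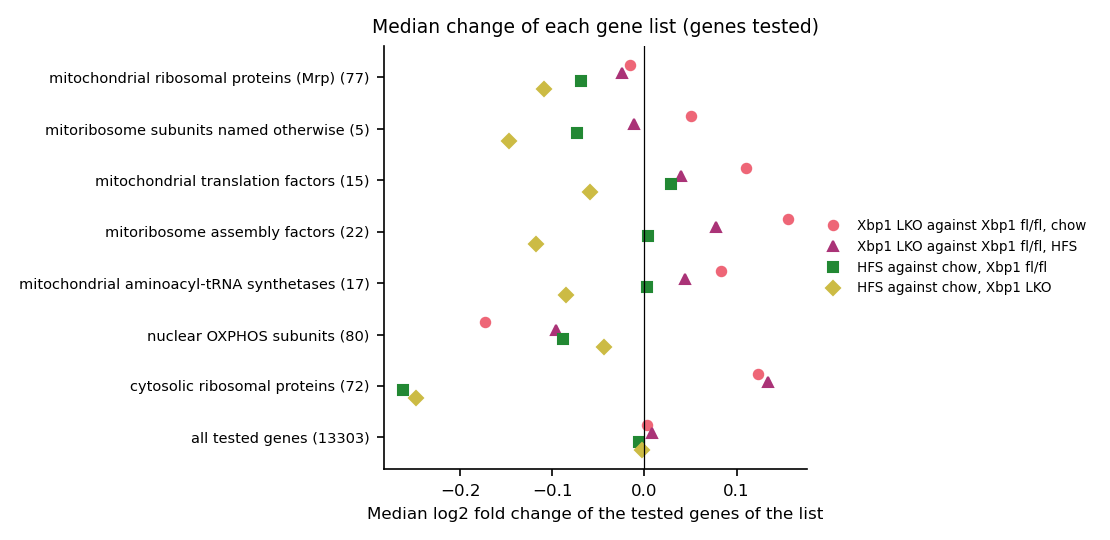
Median log2 fold change of the tested genes of 8 lists, with the number of genes in brackets and 1 marker for each of the 4 comparisons, without error bars. With TMM scaling, as drawn, the mitochondrial ribosomal proteins lie near 0 for genotype, and cytosolic ribosomal proteins lie below them for diet in both genotypes.

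The members were spread over 17 chromosomes, with at most 11 on one of them (chromosome 11). They often stood head to head with another gene. Of the 78, 23 (29.5%) had the start of a protein-coding gene on the opposite strand within 1000 bases upstream, or overlapping by at most 200 bases, against 7.94% of 21951 protein-coding genes. *Mrps12* starts 172 bases from *Sars2*, the mitochondrial seryl-tRNA synthetase. *Mrpl36* is paired with *Ndufs6*, a subunit of complex I, *Mrpl49* with *Fau*, which encodes a cytosolic ribosomal protein, and *Mrps27* with *Ptcd2*, a mitochondrial RNA-processing protein. *Sars2* had an edgeR log2 fold change of -0.16 (adjusted p = 0.59) for genotype on chow and -0.15 (adjusted p = 0.61) on the HFS diet, beside -0.35 and -0.40 for *Mrps12*. None of the 22 neighbours that were tested passed the edgeR threshold in the 4 comparisons, against 4.75%, 4.08%, 0.428% and 0.0601% of all genes. At an unadjusted p under 0.05 there were 3, 2, 1 and 2 of them, against 19.3%, 17.5%, 8.95% and 12.7% of all genes.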

How the data were processed

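Hepatocyte RNA was sequenced as 50-base single-end reads, and the authors deposited whole-number counts per Ensembl gene in 11 libraries, neither normalized nor filtered. The paper states kallisto, tximport and DESeq2, whereas the submitters' processing notes list cutadapt 1.13, STAR, HTSeq 0.6.1p1, DESeq2 and mm10; which made the counts, and how reads that fit several genes were treated, is not settled by the sources used here. The paper names a stranded mRNA kit and the labels a total RNA kit. Of 54232 genes, 54165 were found in GENCODE M21 (GRCm38), which gave symbols, positions and transcript lengths.

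Groups were taken from the sample labels. Library totals were 19191032 to 23888401 counts. TMM factors and CPM came from edgeR 4.0.16 (R 4.3.3). After filterByExpr at a minimum count of 10, 13303 genes were kept, and 1 mean per group was fitted over all 11 libraries by quasi-likelihood, with Benjamini-Hochberg adjustment over all genes and a threshold of 0.05. Nothing says how the libraries of a group relate beyond their mice, so p-values measure the spread between these libraries. The alternatives were DESeq2 1.42.0, RLE factors or library totals as the scaling, a different or no filter, a fit to the compared groups alone, a replicate block and leaving out each library. The code was tested on simulated counts. Members named are those with the smallest p in each comparison (3, as none was called), a panel of 24 set by role, the 3 highest and 3 lowest per kilobase and the 1 that failed the filter. Other genes are named where they passed the threshold, with the 5 subunits of other names and the divergent neighbours. *Mrpl14*, *Mrpl33*, *Mrps17*, *Ppargc1b*, *Atf5*, *Clpx*, *Lonp1*, *Hspd1* and *Trap1* were named after their values were seen. Of 15 strings searched in promoters 8 are given, the others being variants of these, a cyclic AMP element, an E-box and the ER stress element. The members and lists were chosen with earlier results of these data known. Other sequencing, protein and qPCR data of the study were not analysed here.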

Additional observations from a re-analysis of the deposited data

How the results depend on the processing

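No member was called by edgeR in any of the 5 comparisons with RLE size factors or a minimum count of 50, nor in the 4 group comparisons with only the groups compared (the interaction uses all groups). With library totals the counts were 22 (chow genotype) and 5 (HFS genotype), all higher, where the median of all genes rose by 0.33 and 0.27. DESeq2 called 1 member each for genotype on the HFS diet (*Mrps12*), for diet in Xbp1 fl/fl (*Mrpl15*) and for diet in Xbp1 LKO (*Mrps18b*), and edgeR with no filter on low counts called 1 for diet in Xbp1 fl/fl (*Mrps27*). The cause of these differences was not tested. With library totals *Mrps16*, *Mrpl14* and *Mrps18c* on chow turned from -0.26, -0.30 and -0.26 to 0.067, 0.028 and 0.066 (adjusted p = 0.73, 0.89 and 0.77). *Myc* lost its call at a minimum count of 50 (adjusted p = 0.0504).

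Leaving out each library in turn gave 0 to 1 members for genotype on the HFS diet, the 1 being *Mrps12* without the third HFS-fed Xbp1 LKO library, and 0 to 0 in the other comparisons; where a chow-fed Xbp1 LKO library was left out, the lone one was assumed to vary like the other groups. The median of the members then ran from -0.05 to 0.01 for genotype on chow, -0.10 to 0.01 on the HFS diet, -0.09 to -0.03 for diet in Xbp1 fl/fl and -0.16 to -0.07 in Xbp1 LKO mice. The lowest values for genotype on the HFS diet and diet in Xbp1 LKO mice came without the third HFS-fed Xbp1 LKO library.

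Replicate numbers come from the titles and mark different mice. The deposited file of the second chow-fed Xbp1 LKO library carries the number 3, and no fit with that number was made. By title number, deviations of same-numbered libraries of different groups had correlations from -0.20 to 0.23 over 15 pairs. Over 30 pairs with different numbers they ran from -0.27 to 0.33. The groups are small, and the deviations of the chow-fed Xbp1 LKO libraries mirror each other. These correlations therefore cannot decide whether same-numbered libraries share more than a number. A fit with the replicate number as a block called 0 members in each comparison. With it the median of the members was 0.02, -0.03, -0.07 and -0.14 for genotype on chow, genotype on the HFS diet, diet in Xbp1 fl/fl and diet in Xbp1 LKO mice. *Dhx30*, *Myc*, *Mars2* and *Ddit3* on the HFS diet lost their calls under the block, with adjusted p of 0.092, 0.13, 0.057 and 0.060, as did *Xbp1*, *Rpl12* and *Ndufa1* on chow (0.054, 0.051 and 0.092) and *Atp5d* on the HFS diet (0.074); it ended no other call.

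With 2 or 3 libraries per group, the median standard error of a member was 0.11 to 0.13 on the log2 scale for the 4 group comparisons. *Mrpl53*, *Mrpl23* and *Mrps36* had too few counts to show any but large changes, and counts say nothing of protein or of translation.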
